A study of Mus musculus with 4 samples.

Results

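The cytosolic ribosomal protein genes code for the proteins of the large and small subunits of the ribosome that translates nuclear mRNAs. They were taken by symbol as protein-coding genes named Rpl or Rps with a number, together with the stalk genes Rplp0, Rplp1 and Rplp2, and Rpsa. Pseudogenes and the S6 kinases (Rps6k) were left out. Of 84 annotated mouse genes that met the rule, 82 had a row among the 20089 genes of the deposited tables, 50 of the large subunit and 32 of the small subunit. The testis-type copies Rpl10l and Rpl39l had no row. The members lie on 19 chromosomes, with 14 of them on chromosome 7.

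RNA sequencing was done on HT22, an immortalised hippocampal neuronal line of mouse, labelled as strain C57BL/6. The 4 groups were cells with lentivirus against Neat1 under oxygen-glucose deprivation (OGD), cells with control negative lentivirus under OGD, cells with lentivirus against Neat1 in DMEM/F12 with 10% FBS, and cells with control negative lentivirus in that medium. Every group, the controls included, carried a lentivirus. Neat1 is a long noncoding RNA that scaffolds the nuclear bodies called paraspeckles, and the study asked how its knockdown altered mRNAs in normal and stressed culture. Each group held 1 library, so every ratio compares a pair of libraries and none was tested. An additive model of virus plus culture, which tests effects averaged over the other factor with 1 degree of freedom left, was not run. Cultures, virus batches and conditions cannot be told apart, and the labels do not state the hours of OGD or the number of cell clones.

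Each ribosome carries a single copy of most of these proteins, and surplus copies that find no ribosomal RNA are degraded. Their mRNAs are among the most abundant of growing cells. In mammals nearly all of them start with a C followed by a run of pyrimidines, the 5′ terminal oligopyrimidine (TOP) tract, through which the mTORC1 kinase raises or lowers their translation with the supply of nutrients, oxygen and energy. That control acts mainly on translation and on mRNA stability, and mRNA levels alone do not show how much protein is made.

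The libraries held 17232866 to 20764430 reads assigned to genes. Neat1 stood at 42.1 CPM (reads scaled to library size with TMM factors) in knockdown cells under OGD, against 74.4 CPM in control cells under OGD, and at 121 CPM in knockdown cells in normal culture, against 193 CPM in control cells in normal culture. The library of control cells in normal culture stood apart from the rest. Its 12 neuronal marker genes summed to 2054 CPM, against 215.5 CPM in knockdown cells under OGD, 84.63 CPM in control cells under OGD and 33.52 CPM in knockdown cells in normal culture. Over all 33 markers of brain and blood cell types the sums were 354.6, 118.8 and 115.9 CPM in those same 3 libraries and 2482 CPM in control cells in normal culture, with 1, 7, 5 and 1 markers at 0 reads. The markers of every cell type summed highest in control cells in normal culture, though those of microglia only by a little. The 5 microglial markers summed to 70.43 CPM there and to 64.01 CPM in knockdown cells in normal culture. Under OGD they summed to 20.58 CPM in knockdown and 18.14 CPM in control cells. Reads on the ribosomal RNA repeat made up 0.341% of the library in knockdown cells under OGD, 4.78% in control cells under OGD, 4.32% in knockdown cells in normal culture and 1.81% in control cells in normal culture.

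Start-site sequences of the members with the highest and lowest OGD ratios in control cells are shown so that the TOP tract can be looked for in the members that differed most. They run from 15 bases before to 15 bases after the annotated start, on the gene's strand, from RefSeq in build GRCm38.p6. Capitals mark runs of 5 or more C or T. Rpl3, Rpl17 and Rplp1 were left out of the printed set. Rpl3 at 0.87 and Rpl17 at 0.64 had higher ratios than the printed Rpl9 at 0.58. Rplp1 at -0.23 had a lower ratio than the printed Rpl18 at -0.19. The genes printed are the 4 highest and 4 lowest of the remaining members with an entry in the sequence table. The highest of these were Rpl4 on the plus strand at chr9:64173372-64173401, Rpl10a on the plus strand at chr17:28328456-28328485, Rps3a1 on the minus strand at chr3:86142654-86142683 and Rpl9 on the minus strand at chr5:65391417-65391446. The lowest of these were Rps27l on the plus strand at chr9:66946071-66946100, Rpl27 on the plus strand at chr11:101442230-101442259, Rpl7l1 on the minus strand at chr17:46782642-46782671 and Rpl18 on the plus strand at chr7:45718056-45718085.
Rpl4: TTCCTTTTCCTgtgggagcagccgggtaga
Rpl10a: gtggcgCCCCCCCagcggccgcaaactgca
Rps3a1: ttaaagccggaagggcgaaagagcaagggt
Rpl9: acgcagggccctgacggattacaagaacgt
Rps27l: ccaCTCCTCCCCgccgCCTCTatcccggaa
Rpl27: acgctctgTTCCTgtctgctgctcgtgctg
Rpl7l1: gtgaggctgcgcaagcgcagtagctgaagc
Rpl18: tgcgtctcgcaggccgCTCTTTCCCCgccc
Of these, 2 of the highest (Rpl4 and Rpl10a) and 3 of the lowest (Rps27l, Rpl27 and Rpl18) hold such a run, so a pyrimidine run was not on 1 side only. For Rpl10a and Rps27l the table held 2 starts, and the one with the longer run is printed.

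The sequence table held 62 of the 82 members. A C followed by at least 7 more C or T was searched for within 30 bases to either side of the start, on the gene's strand. This window is wider than the printed sequences. A match was found in 33 of the 62 members (53.2%), against 21.7% of other genes at 100 CPM or more and 20.6% of all 27025 genes in the table. The letters CCGGAA, the core bound by Ets factors such as Gabpa, were found on either strand of the 300 bases around the start in 54.8% of members, against 36.6% of other genes at that level and 16.7% of all genes. AAGATGGC, within the site bound by Yy1, was found on either strand in 9.68% of members, against 6.67% and 3.19%. TATAAA stood within 50 bases before the start, on the gene's strand, in 1 member (1.61%), against 2.56% and 3.15%. A match is a description of the letters and not a site. The 32 well-counted members with the pyrimidine tract had a median log2 OGD ratio of 0.13 in control cells and -0.26 in knockdown cells, and the 28 without it had medians of 0.14 and -0.20.

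Ribosomal protein mRNAs took 11.2% of all reads in knockdown cells under OGD, 10.5% in control cells under OGD, 12.4% in knockdown cells in normal culture and 11.1% in control cells in normal culture. The share was highest in knockdown cells in normal culture and lowest in control cells under OGD, a ratio of shares of 1.12 between knockdown and control cells in normal culture and of 1.06 between them under OGD. Under OGD the share was 0.897 times that of normal culture in knockdown cells and 0.95 times in control cells. Counting error was small beside these differences, since the exact binomial 95% interval ran from 10.504% to 10.533% for the lowest share and from 12.424% to 12.453% for the highest. With the ribosomal RNA repeat and mitochondrial genes taken out of the totals, the shares were 11.4%, 11.3%, 13.5% and 11.7% in the same order of libraries, so the gap between knockdown and control cells under OGD narrowed to a ratio of 1.01. Intervals here and below cover counting error alone, and reads without molecular identifiers are not independent molecules.

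Large-subunit genes held 7.0% of reads in knockdown cells under OGD, 6.64% in control cells under OGD, 7.67% in knockdown cells in normal culture and 6.90% in control cells in normal culture. Small-subunit genes held 4.15%, 3.88%, 4.77% and 4.17% in the same order. Large-subunit reads were therefore 1.69, 1.71, 1.61 and 1.66 times small-subunit reads, a ratio that does not depend on how libraries are scaled and that was a little higher in both OGD libraries. These are sums over 50 large-subunit and 32 small-subunit genes. Taken per gene and per length, the median small-subunit gene stood above the median large-subunit gene in all 4 libraries. In deposited FPKM the large-subunit median was 2146 in knockdown cells under OGD, 2096 in control cells under OGD, 2457 in knockdown cells in normal culture and 2294 in control cells in normal culture. The small-subunit median was 2546, 2188, 3056 and 2612 FPKM in those libraries.

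**Figure D1:**
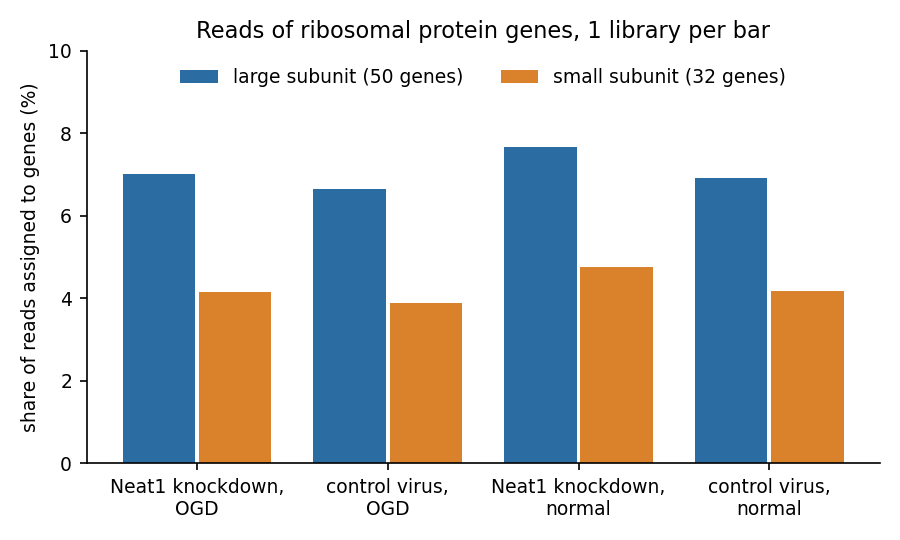
Share of each library's reads (%, vertical axis) on the 50 large-subunit genes (blue) and the 32 small-subunit genes (orange), 1 library per bar and so no error bar. Both subunits had their highest share in knockdown cells in normal culture (7.67% and 4.77%) and their lowest in control cells under OGD (6.64% and 3.88%).

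Single genes spanned a wide range of levels per length. Between 20 and 25 of the 50 genes with the highest FPKM in a library were ribosomal protein genes. Rplp1, an acidic protein of the stalk that recruits translation factors, was the highest of them at 9593 FPKM in knockdown cells under OGD, 8055 FPKM in control cells under OGD, 12588 FPKM in knockdown cells in normal culture and 10985 FPKM in control cells in normal culture. Next by their mean over the 4 libraries came Rps26, which lines the mRNA exit channel, at 8018 FPKM, Rpl41, the shortest ribosomal protein, at 7958 FPKM, Rplp0, the base of the stalk, at 7494 FPKM, and Rps2, near the mRNA entry channel, at 6078 FPKM. The lowest were the muscle-type copy Rpl3l at 0.55 FPKM, Rpl7l1 at 76.5 FPKM, Rpl22l1 at 115 FPKM, Rpl5 at 601 FPKM and Rpl36al at 608 FPKM. All but Rpl5, which carries the 5S ribosomal RNA into the large subunit, are copies or relatives of another member. They and Rps27l are called second copies below.

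The order of levels was much alike in the 4 libraries. Over the 80 members with at least 1000 reads in every library (all but Rpl3l and Rpl22l1), Pearson's r of log2 FPKM was 0.99 between knockdown and control cells under OGD and 0.99 between them in normal culture. It was 0.96 between knockdown cells under OGD and in normal culture and 0.97 between control cells under OGD and in normal culture. These are descriptions across genes that share a library, a gene length and a base composition.

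**Figure D2:**
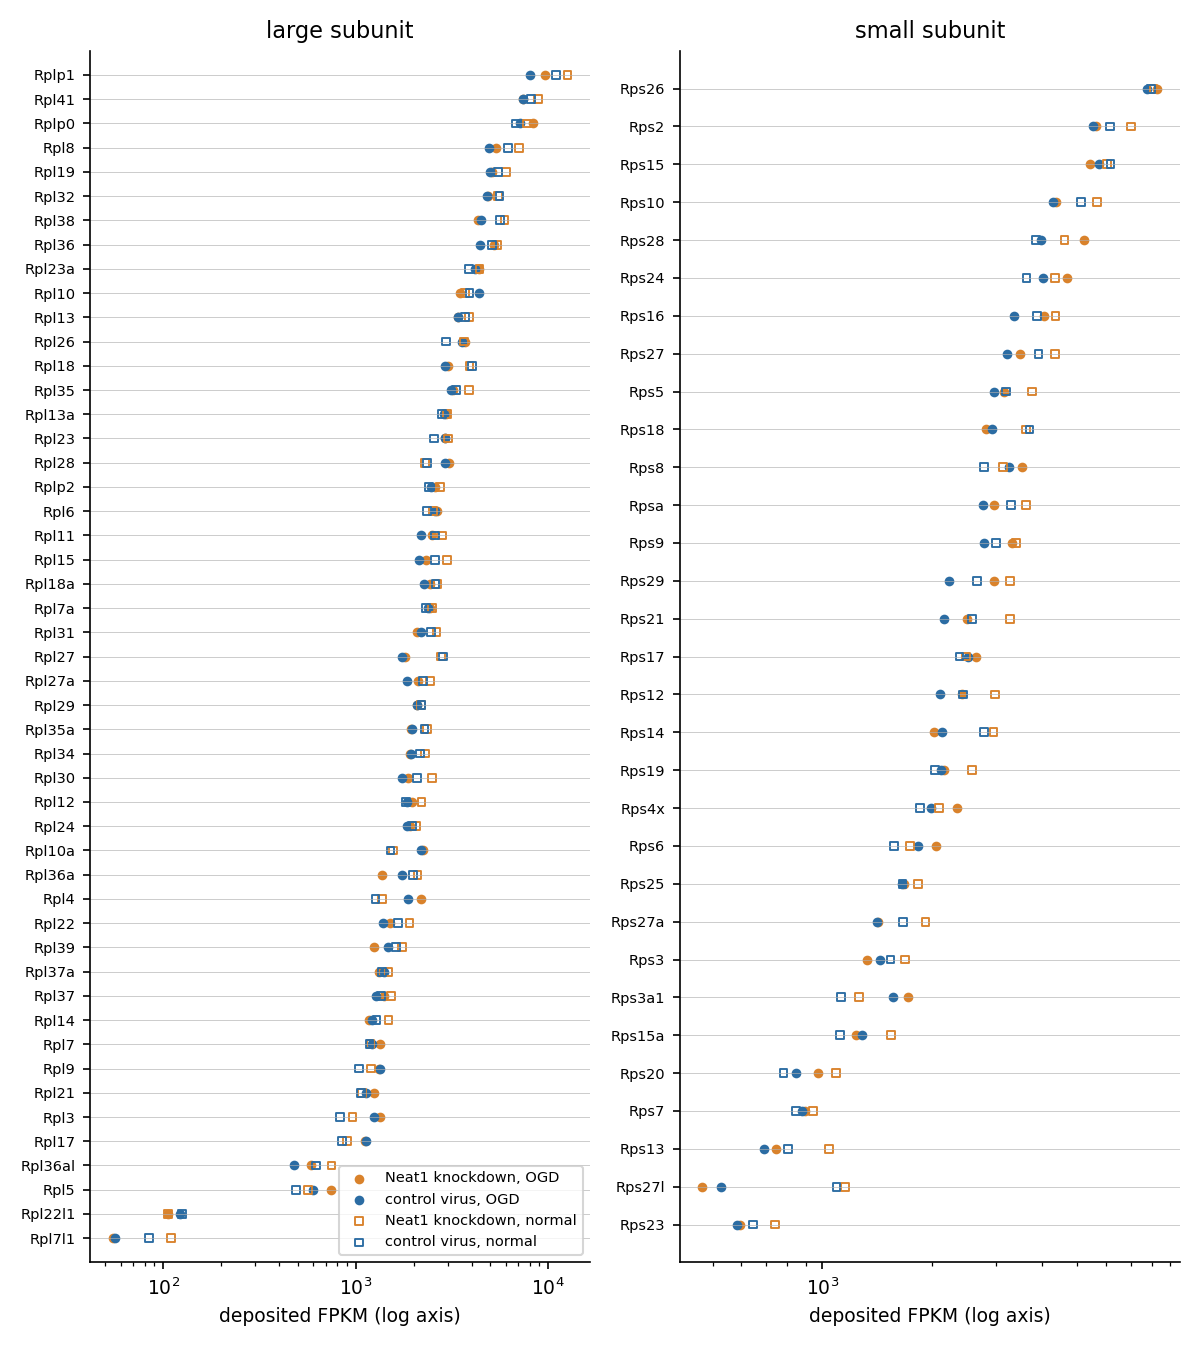
Deposited FPKM (horizontal log axis) of 49 large-subunit genes and 31 small-subunit genes, 1 point per library. Filled circles are OGD and open squares normal culture, orange is Neat1 knockdown and blue the control virus. For most genes the 4 points lie close together beside the range across genes, from 76.5 FPKM for Rpl7l1 to 10305 FPKM for Rplp1 on average.

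The ratios below are on the log2 scale, taken from TMM-scaled CPM after adding 0.5 CPM, for genes that reached 20 reads in the higher of the pair. With Neat1 lentivirus in normal culture, 80 of 82 ribosomal protein genes stood above control cells, where 48.1% of all genes did. Their median log2 ratio was 0.20, with an interquartile range of 0.14 to 0.26, against -0.03 for all 14554 genes past the floor and 0.04 for the 1812 other genes at 100 CPM or more. The shift was small for each gene: only Rpl3l passed 2-fold, in a comparison where 22.6% of all genes did in either direction and 6.25% upward. Few of the 1812 other genes at 100 CPM or more passed it, 10 higher and 30 lower. This comparison uses the control library with 2054 CPM of neuronal markers, and the part of that difference in the result was not tested. Of the well-counted 80 members, 72 stood above 0 with an interval off 0 under all 4 scalings tried, and none stood below. The median counting interval of these members reached 0.03 to either side, so small shifts can pass this rule. The share of other genes that pass it is not given, here or for the same counts in the other pairs below.

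The median ratio was 0.18 for large-subunit and 0.23 for small-subunit genes, a large minus small difference of -0.04. Rps20, a protein of the small subunit's head, had the highest log2 ratio among members with at least 100 reads, 0.47 (95% interval 0.44 to 0.50), at 1228 CPM in knockdown cells against 888.3 CPM in control cells. Rps21 followed at 0.45, with 682 CPM in knockdown cells and 498.4 CPM in control cells. Rps13 stood at 0.42, with 514.4 CPM in knockdown cells and 385 CPM in control cells. Rpl7l1, a relative of Rpl7 whose yeast counterpart takes part in assembly of the large subunit, was also at 0.42, with 256.4 CPM in knockdown cells and 191.8 CPM in control cells. Of these 4 highest members, 3 belong to the small subunit.

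At the other end stood 4 large-subunit genes. Rpl22l1, a copy of Rpl22, had a log2 ratio of -0.12 with an interval that crossed 0 (-0.26 to 0.03), at 35.98 CPM in knockdown cells and 39.01 CPM in control cells. Rpl10, which joins the large subunit late in its maturation in the cytoplasm, was at -0.03, with 1885 CPM in knockdown cells and 1919 CPM in control cells. Rpl28 and Rpl7 were at 0.02 each, with intervals that crossed 0. In the authors' deposited table for this pair, none of the 82 members had an adjusted p-value below 0.05, where 2.61% of all rows did. The authors' deposited table marked 9 members as up, where 5.02% of rows carried a mark of up or down: Rpl26, Rps12, Rps15a, Rps19, Rps20, Rps21, Rps24, Rps28 and Rps29. These 9 were the members with an unadjusted p-value below 0.05 in the authors' deposited table. The lowest adjusted p-value of a member in the authors' deposited table was 0.191, for Rps20.

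Under OGD, knockdown cells held these mRNAs slightly lower than control cells with TMM scaling. Of 81 members past the floor, 66 were below control cells, where 50.1% of all genes were. The median log2 ratio was -0.14 (interquartile range -0.20 to -0.06), against 0.00 for all genes and -0.19 for the other genes at 100 CPM or more, so the members sat close to other abundant genes. With total-count scaling the members' median turned to 0.06 and all genes' to 0.19. The members' median relative to all genes was -0.14 with TMM and -0.13 with total counts. Under all 4 scalings 12 of the 80 well-counted members stood above 0 and 14 below, with intervals off 0. No member passed 2-fold, where 15% of all genes did. Few of the 1812 other genes at 100 CPM or more passed it, 14 higher and 29 lower. In the authors' deposited table no member had an adjusted p-value below 0.05, where 0.124% of rows did. The ribosomal RNA repeat took 0.341% of reads in knockdown cells and 4.78% in control cells, and its part in the scaling was not tested.

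The large-subunit median was -0.15 and the small-subunit median -0.10, a difference of -0.05. Rpl36a, a protein near the exit site for transfer RNA on the large subunit, had the lowest ratio at -0.56 (-0.61 to -0.52), with 437.5 CPM in knockdown cells against 646.9 CPM in control cells. Rpl10 was at -0.52, with 1754 CPM in knockdown cells against 2518 CPM in control cells. Rpl39, a small protein that lines the exit tunnel of the nascent chain, was at -0.45, with 476.9 CPM in knockdown cells against 653.9 CPM in control cells. These 3 lowest genes lie apart on the X chromosome, Rpl36a at chrX:134585654-134588062, Rpl10 at chrX:74270812-74273135 and Rpl39 at chrX:37082520-37085402 (GRCm38). That chromosome carries 4 members.

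The other X-linked member, Rps4x, stood at 0.05, with 1513 CPM in knockdown cells and 1465 CPM in control cells. The 48 other X-linked genes at 100 CPM or more had a median of -0.16, against -0.19 for 1764 such genes on other chromosomes, so the X-linked median was not the lower one. The highest members were all of the small subunit. Rps29 and Rps28 were at 0.24 each, Rps20 at 0.13 and Rps16, whose tail reaches the peptidyl transfer RNA, at 0.09. Rps28 stood at 856.9 CPM in knockdown cells against 726 CPM in control cells, and Rps29 at 518.7 CPM in knockdown cells against 439 CPM in control cells.

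Under OGD in control cells the group's median was close to that of other abundant genes, and its members differed from each other by more than counting error. With TMM scaling, 61 of 81 members stood above normal culture, where 44.6% of all genes did, and the median log2 ratio was 0.15 (interquartile range 0.00 to 0.30). All genes had a median of -0.11 and the other genes at 100 CPM or more one of 0.16. With total-count scaling the members' median turned to -0.09 and that of all genes to -0.34, a shift of -0.23 for all genes. Relative to all genes the members' median was 0.26 with TMM and 0.25 with total counts. Under all 4 scalings 24 of the 80 well-counted members stood above 0 and 9 below, with intervals off 0. No member passed 2-fold, where 31.5% of all genes did. Among the 1812 other genes at 100 CPM or more, 230 were higher and 68 lower by 2-fold. In the authors' deposited table none had an adjusted p-value below 0.05, where 1.21% of rows did. The normal-culture library here is again the one with 2054 CPM of neuronal markers, against 84.63 CPM under OGD, and the part of that difference in the result was not tested.

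Differences between members do not depend on scaling. The standard deviation of the log2 ratios over the 80 well-counted members was 0.27 in this pair, while the median counting interval reached 0.03 to either side of a ratio. Other genes at 100 CPM or more spread more widely, with a standard deviation of 0.93 and an interquartile range of -0.24 to 0.61. Rpl3 (chr15:80077791-80091868, GRCm38), whose protein lies near the peptidyl transferase centre, had the highest ratio at 0.87 (0.84 to 0.90), with 1641 CPM under OGD against 899 CPM in normal culture. Rpl4, which reaches into the exit tunnel, was at 0.79, with 2522 CPM under OGD against 1455 CPM in normal culture. Rpl10a, the protein of the L1 stalk beside the exit site, was at 0.76, with 1601 CPM under OGD against 946.5 CPM in normal culture. Rps3a1, a small-subunit protein near the mRNA exit, was at 0.71, with 1332 CPM under OGD against 815.8 CPM in normal culture.

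Rps27l, a copy of Rps27 known as a p53 target, was the lowest at -0.81 (-0.88 to -0.75), with 181.7 CPM under OGD against 320.1 CPM in normal culture. Rpl27 was at -0.48, with 786.3 CPM under OGD against 1099 CPM in normal culture. Rpl7l1 was at -0.34 and Rplp1 at -0.23. The large-subunit genes spanned nearly the whole range, from Rpl27 to Rpl3, and the medians of large- and small-subunit genes, 0.16 and 0.13, differed by 0.03.

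OGD in knockdown cells put most members lower than normal culture. Of 82 members, 63 were below normal culture, where 50% of all genes were. The median log2 ratio was -0.21 (interquartile range -0.36 to -0.02), against 0.00 for all genes and -0.08 for the other genes at 100 CPM or more. This direction held under all 4 scalings, with medians of -0.21, -0.22, -0.21 and -0.30. Of the 80 well-counted members, 60 stood below 0 with an interval off 0 under all of them and 14 stood above. The members past 2-fold were 3, all lower (Rps27l, Rpl7l1 and Rpl3l), where 35.9% of all genes passed it in either direction and 16.9% downward. Among the 1812 other genes at 100 CPM or more, 219 were higher and 165 lower by 2-fold. In the authors' deposited table none had an adjusted p-value below 0.05, where 0.0947% of rows did. Neither library of this pair is the one with 2054 CPM of neuronal markers. The sums were 215.5 CPM under OGD and 33.52 CPM in normal culture, and the ribosomal RNA repeat took 0.341% and 4.32% of reads. The part of these differences in the result was not tested.

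Rps27l had a log2 ratio of -1.35 (-1.42 to -1.29), with 141.4 CPM under OGD against 362.1 CPM in normal culture. Rpl7l1 was at -1.0 (-1.07 to -0.94), with 127.7 CPM under OGD against 256.4 CPM in normal culture. Rpl27 did not reach the rule, at -0.69, with 703.7 CPM under OGD against 1133 CPM in normal culture, and Rpl36a at -0.66, with 437.5 CPM under OGD against 693.8 CPM in normal culture. Both genes past 2-fold that were well counted were second copies in the sense used here, Rpl7l1 being a relative of Rpl7.

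The highest were the same 4 genes as in control cells. Rpl4 was at 0.67 (0.65 to 0.69), with 2585 CPM under OGD against 1623 CPM in normal culture. Rpl10a was at 0.47, with 1406 CPM under OGD against 1011 CPM in normal culture. Rps3a1 and Rpl3 were at 0.43 each, with 1277 and 1487 CPM under OGD against 944.6 and 1100 CPM in normal culture. The large-subunit median was -0.19 and the small-subunit median -0.26, a difference of 0.07.

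**Figure D3:**
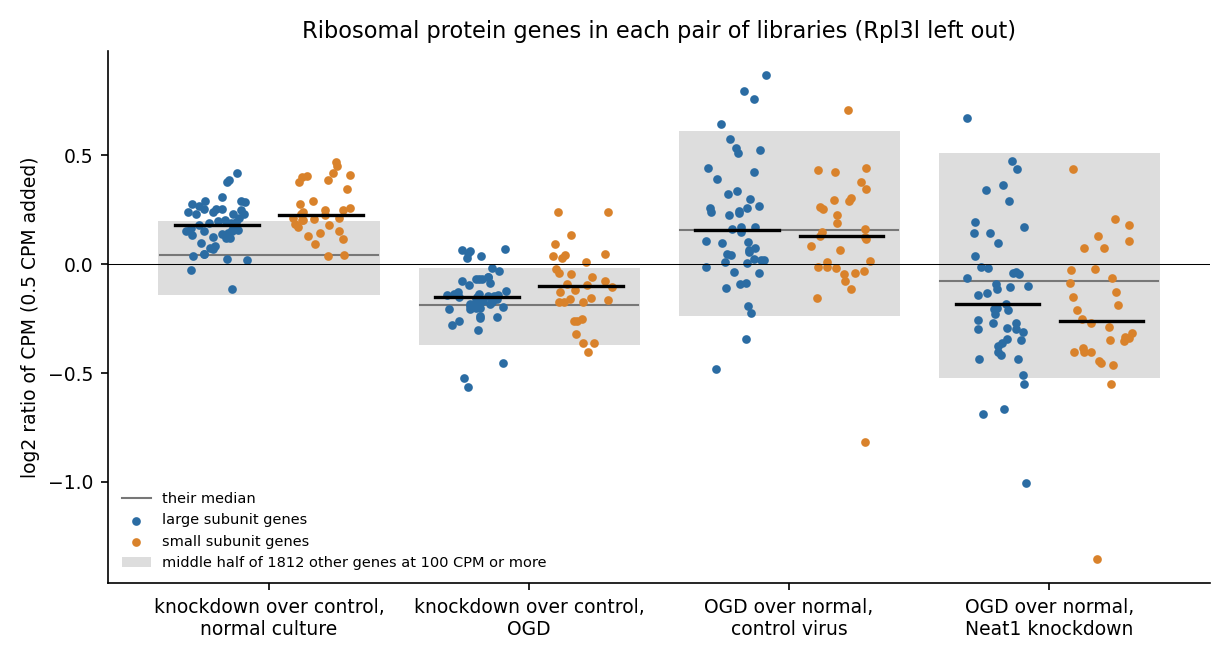
Log2 ratio of CPM (vertical axis) for each large-subunit gene (blue) and small-subunit gene (orange) in the 4 pairs of libraries, with subunit medians as black lines and Rpl3l left out. Grey boxes span the interquartile range of 1812 other genes at 100 CPM or more, with their median as a grey line. Points sit mostly above 0 for knockdown in normal culture (median 0.20) and spread most for OGD in knockdown cells (SD 0.32).

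The OGD ratios of single members were alike in the 2 virus backgrounds, which share no library. Over the 80 well-counted members Pearson's r was 0.90 and Spearman's rho 0.86. Without Rps27l and Rpl7l1, r was 0.88. It was 0.90 over 48 large-subunit genes and 0.90 over 32 small-subunit genes, and 0.58 with a rho of 0.83 over the 1812 other genes at 100 CPM or more. The 80 genes are not independent replicates, since they share libraries, lengths and base composition. The knockdown ratios in the 2 cultures, which also share no library, had an r of 0.43 and a rho of 0.41 over the members. For these ratios r was 0.26 over the large-subunit genes and 0.56 over the small-subunit genes. Over the 1812 other genes r was -0.33 and rho 0.13.

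With TMM scaling the OGD ratio was lower in knockdown than in control cells for all 80 well-counted members, with a median difference of -0.32, against -0.23 for the other genes at 100 CPM or more, of which 74.6% were lower. With total counts 59 of the 80 were lower, and the median difference was -0.09. The members' median difference relative to the other abundant genes was -0.09 with each of the 4 scalings. Rps15a, a protein of the small subunit's body at chr7:118104372-118116188 (GRCm38), differed most at -0.77, after Rpl3l. Its levels were 823.3 CPM in knockdown cells under OGD, 1060 CPM in control cells under OGD, 1048 CPM in knockdown cells in normal culture and 791.5 CPM in control cells in normal culture. Rps15a was thus high with control virus under OGD and with Neat1 virus in normal culture, and low in the other two libraries.

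Rpl36a at -0.73, Rpl7l1 at -0.66 and Rpl39 at -0.61 followed. The smallest differences were those of Rpl7 at -0.04, Rpl4 at -0.12, Rpl21 at -0.13 and Rpl36 at -0.13. Rpl7 stood at 981 CPM in knockdown cells under OGD, 992.3 CPM in control cells under OGD, 859.2 CPM in knockdown cells in normal culture and 844.7 CPM in control cells in normal culture. Its OGD ratio was 0.19 in knockdown cells and 0.23 in control cells. The same numbers are the differences between the knockdown ratios in the 2 cultures. With TMM scaling 64 of 80 members stood above control cells in normal culture and below them under OGD, against 42% of other abundant genes.

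**Figure D4:**
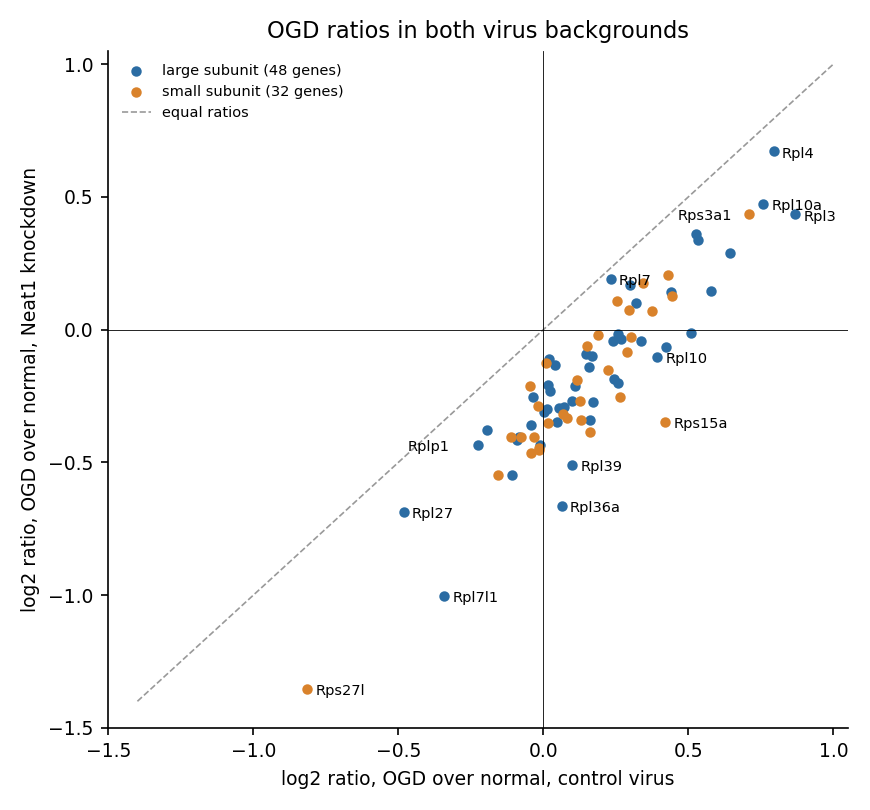
Log2 ratio of OGD over normal culture in knockdown cells (vertical axis) against that in control cells (horizontal axis) for 48 large-subunit (blue) and 32 small-subunit genes (orange), with equal ratios as a dashed line. With TMM scaling all 80 points lie below the dashed line and run along it (r = 0.90), from Rps27l at the lower left to Rpl3, Rpl4 and Rpl10a at the upper right.

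Longer members tended to have higher OGD ratios. The 27 members with the shortest coding sequence, 138 to 405 bases, had a median log2 OGD ratio of -0.30 in knockdown cells and 0.05 in control cells. The 27 with the longest, 582 to 1257 bases, had medians of -0.09 and 0.26. Over the 80 members Pearson's r of log2 coding length with the OGD ratio was 0.41 in knockdown cells and 0.40 in control cells. It was 0.50 and 0.43 over 48 large-subunit genes, and 0.25 and 0.34 over 32 small-subunit genes. Over 1679 other abundant genes with a coding sequence it was 0.23 and 0.19, so length moved with the ratio outside the ribosome too. With the knockdown ratio r was 0.02 under OGD and -0.17 in normal culture. The 30 members that host a small nucleolar RNA in their span had a median OGD ratio of -0.11 in knockdown cells and 0.24 in control cells, against -0.27 and 0.09 for the 50 that do not.

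Among the members with roles of their own, the 3 stalk genes had unlike ratios. Per length, Rplp1 stood at 3.70 times its partner Rplp2 in knockdown cells under OGD and 3.28 times in control cells under OGD, against 4.61 times in knockdown cells and 4.58 times in control cells in normal culture. Relative to Rplp0 it stood at 1.15, 1.13, 1.63 and 1.62 times in the same order, so both ratios were lower in the OGD libraries whichever virus the cells carried. Rplp0 itself had a log2 OGD ratio of 0.10 in knockdown cells and 0.32 in control cells, while Rplp1 had -0.44 and -0.23. Rplp2 had -0.04 and 0.24.

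Rpl5 and Rpl11, which with 5S ribosomal RNA can bind Mdm2 and so release p53, differed from each other. Rpl5 stood at 689.2 CPM in knockdown cells under OGD, 657.2 CPM in control cells under OGD, 545.1 CPM in knockdown cells in normal culture and 453.8 CPM in control cells in normal culture, an OGD ratio of 0.34 in knockdown and 0.53 in control cells. Rpl11 stood at 1194, 1220, 1379 and 1206 CPM in those libraries, with OGD ratios of -0.21 and 0.02. Rps6, the target of the S6 kinases, had OGD ratios of 0.21 in knockdown and 0.43 in control cells. Rpsa, also known as a laminin receptor at the cell surface, had -0.29 and -0.02. Rps4x had 0.18 and 0.34.

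The second copies were low beside their partners, and their level relative to the partner varied with culture for some pairs. Rps27l reached 13.5% of the FPKM of Rps27 in knockdown cells under OGD and 16.4% in control cells under OGD, against 26.6% in knockdown cells and 27.9% in control cells in normal culture. Rpl7l1 reached 4.08% of Rpl7 in knockdown cells and 4.65% in control cells under OGD, against 9.25% in knockdown cells and 7.16% in control cells in normal culture. Both pairs had the lower share under OGD with either virus.

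Rpl36al, the autosomal copy of X-linked Rpl36a, reached 42.6% of Rpl36a in knockdown cells under OGD, 27.6% in control cells under OGD, 35.7% in knockdown cells in normal culture and 31.3% in control cells in normal culture. Here the knockdown libraries were the higher ones in each culture. Rpl36al had 241.4 CPM in knockdown cells and 232.6 CPM in control cells under OGD, while Rpl36a had 437.5 and 646.9 CPM. Rpl22l1 stayed between 5.57% and 8.85% of Rpl22 in the 4 libraries. Near-identical copies share reads, and the rule by which the authors' counting split them is unknown here, which leaves these shares uncertain.

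Rpl3l, the copy of Rpl3 known from heart and skeletal muscle, had 0 reads in knockdown cells under OGD, 8 reads in control cells under OGD, 26 reads in knockdown cells in normal culture and 0 reads in control cells in normal culture. Set against 3 reads in a library at 0, it was at least 7.91-fold higher in knockdown than in control cells in normal culture. In knockdown cells it was at least 7.90-fold lower under OGD than in normal culture. Its ratios rest on few reads and it adds next to nothing to the members' total.

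**Figure D5:**
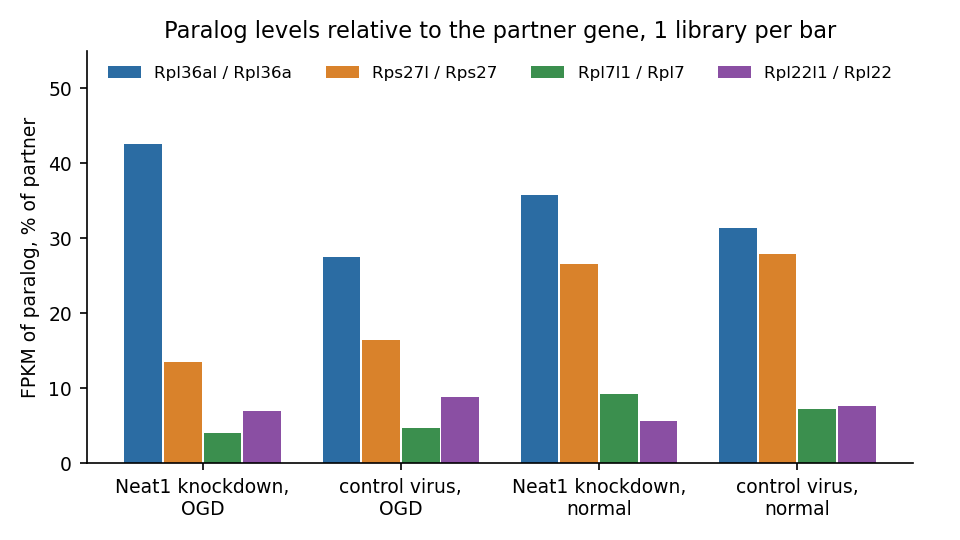
FPKM of each second copy as a percentage of its partner's FPKM (vertical axis, from 0) in the 4 libraries, 1 library per bar and so no error bar. Rps27l and Rpl7l1 stand lower in the OGD libraries (13.5% and 16.4%, and 4.08% and 4.65%), and Rpl36al is highest in knockdown cells under OGD (42.6%).

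A further 182 rows carried ribosomal protein names outside the rule, 177 of them pseudogenes, and took reads equal to 12.6% to 13.3% of the members' reads. Rps2-ps10 alone had 45732 reads in knockdown cells under OGD, 39493 in control cells under OGD, 56558 in knockdown cells in normal culture and 43484 in control cells in normal culture. It can hold reads that belong to Rps2, and its log2 ratios kept the sign of those of Rps2 in all 4 pairs. They were -0.14 against -0.16 for Rps2 with knockdown under OGD, and 0.25 against 0.23 with knockdown in normal culture. Under OGD they were -0.17 against -0.32 in knockdown cells and 0.21 against 0.07 in control cells.

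Other genes of the translation machinery were set beside the members as lists chosen with earlier results of these data known. Fau and Rack1, ribosome proteins outside the symbol rule, had log2 ratios of 0.12 and -0.18 with knockdown under OGD and of 0.32 and 0.18 in normal culture. Their OGD ratios were 0.06 and -0.37 in knockdown cells, and 0.27 and -0.0062 in control cells. The 78 mitochondrial ribosomal protein genes, which serve a separate ribosome, had a median of -0.19 with knockdown under OGD and 0.20 in normal culture. Under OGD their median was -0.43 in knockdown cells, with 3 genes higher and 16 lower by 2-fold, and -0.04 in control cells, with 3 higher and 5 lower. Of all genes, 19.1% were higher and 16.9% lower by 2-fold under OGD in knockdown cells, and 9.36% higher and 22.2% lower in control cells, so 16 lower of 78 is near the share of all genes. The 38 proteasome subunits, another abundant complex, had 37 genes past the floor and medians of -0.17 with knockdown under OGD and 0.11 in normal culture, and of -0.41 under OGD in knockdown and -0.06 in control cells. The median OGD ratios of the cytosolic members, -0.21 in knockdown and 0.15 in control cells, were higher than those of both lists, a difference that was not tested.

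Of 39 initiation factors, 4 were higher and 5 lower by 2-fold under OGD in knockdown cells, and 6 higher and 0 lower in control cells. In knockdown cells both counts are below the shares of all genes, 19.1% and 16.9%, and in control cells the higher count is above the share of 9.36% and the lower one below that of 22.2%. Eif1, which helps select the start codon, had OGD ratios of 1.21 in knockdown and 1.93 in control cells. Eif4b, a helper of the helicase Eif4a, had 1.40 and 1.54. Of the elongation and termination factors past the floor, 1 of 14 was higher (Eef1a2) and 2 were lower by 2-fold under OGD in knockdown cells. In control cells 1 of 15 was higher (Eef2) and 2 were lower, Eef1a2 among them. Eef2, the translocase, had OGD ratios of 0.97 and 1.08, and Eif5a, which eases stalled peptide bonds, -1.52 and -0.52. Eef1a2, the form used by mature neurons and muscle, had 229 reads in knockdown cells under OGD, 24 in control cells under OGD, 7 in knockdown cells in normal culture and 2019 in control cells in normal culture. It was thus highest in the library with most neuronal marker reads.

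The 10 other TOP mRNAs listed, which are not all such mRNAs, had median OGD ratios of 0.23 in knockdown and 0.53 in control cells. These medians were above those of the ribosomal protein genes. In each virus background 8 of the 10 stood above 0 and 2 below, with lowest ratios of -0.25 in knockdown and -0.06 in control cells. Of them Vim was past 2-fold, at 1.79 and 1.73, while Pabpc1 stood at 0.46 and 0.86 and Tpt1 at 0.51 and 0.84. Of 18 regulators of TOP mRNA translation, 4 in knockdown and 5 in control cells were higher by 2-fold under OGD and none was lower. Beside the shares of all genes, 19.1% in knockdown and 9.36% in control cells, the count in knockdown cells is near the background. They included Ddit4 at 2.76 and 1.44 and Tsc1 at 2.23 and 1.56, both of which restrain mTORC1, and Rictor, a subunit of mTORC2, at 2.50 and 1.83. Of 15 chaperones and ubiquitin-linked partners of ribosomal proteins, 1 was higher and 5 lower by 2-fold under OGD in knockdown cells, and 2 were higher and 0 lower in control cells. Of all genes 16.9% were lower in knockdown cells and 22.2% in control cells. Bop1, an assembly factor of the large subunit, stood at -2.06 and -0.93, and Mdm2, the ubiquitin ligase that Rpl5 and Rpl11 bind, at 2.40 and 1.92.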

How the data were processed

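Total RNA of 4 HT22 cultures was sequenced, 1 library per combination of virus and culture. TRIzol RNA was, per the labels' protocols, fragmented, copied to cDNA with deoxy-UTP in a single strand and amplified by PCR. Alignment was by TopHat2 to mm10, per the submitters' processing notes. Not given in the sources used here are the counting program, its annotation and its use of strand, and overlapping or antisense genes may share reads. The 4 tables that the authors deposited hold, per the file headers, size-factor scaled counts per gene (a signal per library), a fold ratio, its log2 and a p-value with its adjusted p-value. The deposited columns headed by library number name no unit and were read as FPKM from their values. There were 0 value columns with no sample.

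From the deposited signal, whole reads were recovered, and 100% of values were whole within 1e-06 of a read. Of 20089 genes, 19950 matched GENCODE mouse release 21 (GRCm38) by identifier, and 139 did not. TMM factors (edgeR 4.0.16, R 4.3.3) under OGD were 1.03 in knockdown and 0.893 in control cells, and in normal culture 1.03 and 1.05. Log2 ratios used CPM with 0.5 added, which shrinks the ratio of low genes, for genes that reached 20 reads in the higher of the pair. The size rule was 2-fold. Intervals (95%) were exact conditional binomial for ratios and exact binomial for shares, computed with scipy 1.17.1. As groups held 1 library, no count test was made for a pair, an additive model of virus plus culture was not run, and no p-value was computed. The calculation was tested on simulated Poisson counts, drawn from a shared profile with some genes changed and scaled by total counts. That setting held no TMM factors and no variation beyond counting error, so it does not test the scaling. Members, lists and tests were chosen with earlier results of these data known.

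The genes named were, per comparison, the 4 highest and 4 lowest members with at least 100 reads and those past 2-fold. Added were the 5 highest and 5 lowest by FPKM, the stalk, genes with other roles, second copies, the 4 extremes on each side of the OGD difference and up to 3 genes per list. Rpl18 and Rpl9, the pseudogene Rps2-ps10 members marked by the authors and members whose signs differed between groups were named after their values were seen. Some genes that the rule or a list takes are not reported here. Alternatives were total counts, median-of-ratios factors, totals without ribosomal RNA repeat and mitochondrial genes, adding 0.1 or 2 CPM, a 100-read floor or no floor, deposited FPKM, members without second copies, and a 1.5-fold rule. Promoters came from RefSeq (GRCm38.p6).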

Additional observations from a re-analysis of the deposited data

Results flagged for a closer look

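Among the well-counted members, 10 of those given here stood on opposite sides of control cells in the 2 cultures, with counting intervals off 0 under all 4 scalings. The same rule was met by 14.3% of the 2490 other genes with at least 1000 reads in every library, against 13.8% of the members. Given as log2 ratios with knockdown under OGD and in normal culture, they were Rpl36a at -0.56 and 0.16, Rpl39 at -0.45 and 0.15, Rps15a at -0.36 and 0.41, Rps27l at -0.36 and 0.18, and Rps3 at -0.32 and 0.15. The others were Rpl37a at -0.28 and 0.18, Rps14 at -0.26 and 0.13, Rpl31 at -0.26 and 0.14, Rpl14 at -0.25 and 0.25, and Rpl38 at -0.24 and 0.20. On opposite sides of normal culture in the 2 virus backgrounds stood 7 members, or 8.75%, against 4.42% of those other genes. Given as log2 OGD ratios in knockdown and control cells, they were Rps15a at -0.35 and 0.42, Rpl10 at -0.10 and 0.39, Rps7 at -0.086 and 0.29, Rpl23 at -0.065 and 0.42, Rpl23a at -0.044 and 0.34, Rpl7a at -0.037 and 0.27, and Rps20 at -0.030 and 0.30. Only Rps15a was in both sets. With 1 library per group these differences between groups and between shares were not tested.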

How the results depend on the processing

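No paired analysis by replicate was possible because the groups hold 1 library each and share no replicate numbers, and no library could be left out. A fit of culture blocked by virus, with 1 residual degree of freedom, was not run. Knockdown in normal culture and OGD in knockdown cells kept the sign of their median under every alternative run, while knockdown under OGD and OGD in control cells did not. For knockdown under OGD the median log2 ratio was 0.060 with total counts, 0.047 with deposited FPKM, -0.0062 with totals without ribosomal RNA repeat and mitochondrial genes and -0.15 with median-of-ratios factors. In the same order of settings it was 0.17, 0.15, 0.21 and 0.24 for knockdown in normal culture, and -0.093, -0.096, -0.070 and 0.19 for OGD in control cells. For OGD in knockdown cells it was -0.22, -0.17 and -0.30 with total counts, deposited FPKM and the reduced totals, and -0.20 without second copies. The median difference of the OGD ratios was -0.089 with total counts, -0.36 with median-of-ratios factors and -0.19 without ribosomal RNA repeat and mitochondrial genes, settings chosen for it after seeing the data.

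The count of members past 2-fold was 1 without a floor for knockdown under OGD. For knockdown in normal culture the count was 0 with 2 CPM added, a floor of 100 reads or second copies left out. For OGD in knockdown cells it was 1 with 2 CPM added, 0 without second copies and 6 at 1.5-fold (1 higher and 5 lower). For OGD in control cells it was 1 with total counts, deposited FPKM, no floor or totals without ribosomal RNA repeat and mitochondrial genes, and 6 at 1.5-fold (5 higher and 1 lower). The share of all genes past 1.5-fold is not given. The large minus small median was -0.043 with deposited FPKM for knockdown under OGD, and -0.056 with deposited FPKM or without second copies for knockdown in normal culture. For OGD in knockdown cells it was 0.078 with the 100-read floor, 0.093 with deposited FPKM and 0.091 without second copies. The cause of these shifts was not tested.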
